A study of Mus musculus with 383 samples.

Results

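Among tumour cells sorted as negative for Epcam, a surface adhesion protein of epithelia, 58 cells with high Krt14 (called hybrid below) were set against cells with almost no Krt14 (called mesenchymal below). Both came from skin squamous cell carcinomas of mice carrying Lgr5CreER, p53fl/fl and Rosa26-YFP+/+ among their alleles. In these mice Cre is expressed in the Lgr5 lineage of the hair follicle, where it removes p53 and marks the cell with YFP. Both groups, and the Epcam-positive cells used as a further comparison, share the whole genotype and were sorted as YFP-positive living cells. Transcriptomes were read by Smart-seq2, which amplifies full-length cDNA from 1 cell per well and adds no molecular identifiers. The sources used here name neither the ages nor the number of mice and tumours.

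Members were chosen by their own read counts. An Epcam-negative well was kept with at least 100000 gene reads, 2000 genes with a read, at most 20% mitochondrial reads and spike-in reads at most 50% of the total, which removed 47 of 310 labelled cells. Another 10 with Epcam at 50 CPM (counts per 1000000 gene reads in a cell) or more were left out. Hybrid cells had Krt14 at 1000 CPM or more (58 cells, 22.9% of those left, exact 95% interval 17.9 to 28.6%). Mesenchymal cells had Krt14 under 50 CPM (67 cells in columns 1 to 12 of the plate and 72 in columns 13 to 24, together 54.9%, interval 48.6 to 61.2%), and the 56 cells between the limits (22.1%) were left out. Sample titles hold a pair of index sequences and name no well, so plate columns and rows throughout are inferred. The whole series holds 380 single cells, 70 of them sorted as Epcam-positive, of which 62 passed the same filter. The labels name no animal, so each sorted population is 1 sample, cells are not replicates, no test was run, and all differences below are descriptions of these cells.

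In an epithelial to mesenchymal transition, or EMT, a carcinoma cell loses the junctions and keratins that tie it to its neighbours and takes on the vimentin, collagens and migratory habits of a mesenchymal cell. The change can stop part way, and a cell that carries both programmes at once is called hybrid. Krt14 and its partner Krt5 build the intermediate filaments of basal keratinocytes, the dividing layer of epidermis and outer hair follicle, and Trp63 (p63) is the transcription factor that maintains that layer. Vim is the intermediate filament protein of mesenchymal cells, and the Zeb, Snai, Twist and Prrx factors can switch on the mesenchymal programme.

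Krt14 (chromosome 11, 100203162 to 100207548, GRCm38) was the value that made the groups and is given as a description only. It ran over 1013 to 20800.4 CPM (median 4376) in hybrid cells and 0 to 47.5 CPM (median 12.1) in mesenchymal cells. Just inside the upper limit lay cells at 1013, 1020 and 1034 CPM and just outside it cells at 996.9 and 962.9 CPM, so that the upper limit cuts through a continuous range. Mesenchymal cells nearest the lower limit had 47.5 and 46.4 CPM, and the nearest cells left out 50.9 and 52.3 CPM. Epcam, the other gene of the rule, was at 0 reads in 45 of 58 hybrid cells and in all but 23 mesenchymal cells, against a range of 14.2 to 3611 CPM (median 872) in Epcam-positive cells. The Epcam-negative cells nearest that limit had 43.9 and 36.3 CPM inside it and 86.9 and 92.7 CPM outside it.

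**Figure D1:**
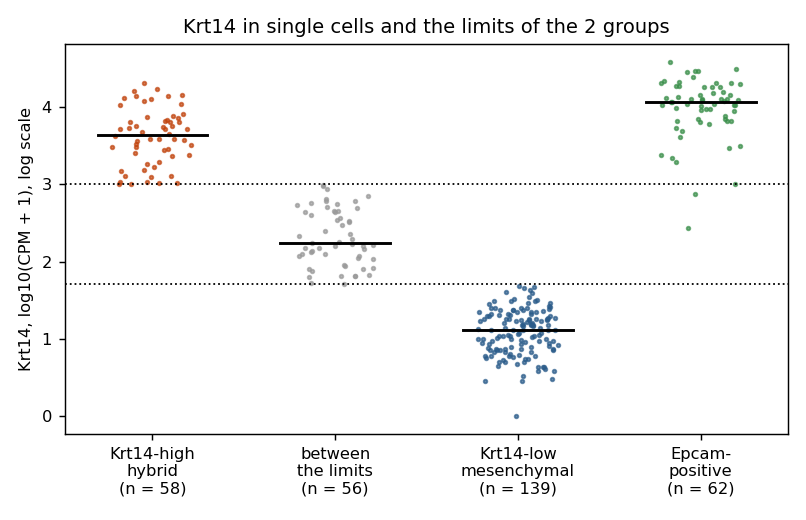
Krt14 in each kept cell, as log10 of CPM + 1, for hybrid cells, cells between the limits, mesenchymal cells and Epcam-positive cells; each point is 1 cell, the bar is the median cell and the dotted lines are the limits of 1000 and 50 CPM. The rule itself separates the hybrid and mesenchymal cells, and the hybrid median of 4376 CPM lies below the Epcam-positive median of 11597 CPM.

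Both names were checked against markers. A gene was called present in a cell with 5 or more of 100000 reads drawn at random from it, which is 50 CPM at equal depth. Vim was present in 56 of 58 hybrid cells and in every mesenchymal cell, and Vim together with Col1a1 in 51 hybrid cells (87.9%, interval 76.7 to 95.01%) and 99.3% of mesenchymal cells, against 3 of 62 Epcam-positive cells. Most Krt14-high cells therefore carried mesenchymal transcripts beside the keratin. Of the wells set up without a cell, the Epcam-positive one held 99241 gene reads (Krt14 at 9029 CPM), against its label, and the Epcam-negative one 4018, and both were kept out of all groups. Among hybrid cells 3 go against the name hybrid, with mesenchymal sums under the upper quartile of Epcam-positive cells (10332 CPM). Of these, 2 had Vim at 25.1 and 37.5 CPM, and their 30 measured epithelial genes summed to 35842 and 18038 CPM and their 50 measured mesenchymal genes to 3169 and 9184 CPM. The other had Vim at 888 CPM, an epithelial sum of 19262 CPM and a mesenchymal sum of 8611 CPM. The main counts of list genes are given below also without them, a choice made after seeing the data.

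Depth was alike in both groups. Gene reads per cell ran from 105909 to 746671 (median 398061) in hybrid and from 104330 to 900492 (median 425995) in mesenchymal cells, and summed to 21938782 in hybrid and 58495499 in mesenchymal cells. After thinning to 100000 reads the median cell had 5630 genes in the hybrid and 5026 in the mesenchymal group, and the median mitochondrial share was 5.72% in hybrid and 3.71% in mesenchymal cells. Gene reads per spike-in read, a measure of RNA content, had a median of 194.1 in hybrid, 147.7 in mesenchymal and 221.1 in Epcam-positive cells. The sort used a doublet gate and no doublet caller was run, so the part of wells holding more than 1 cell was not tested. Both groups lay in the same 13 inferred plate rows, D to P. Plate columns 1 to 12 and 13 to 24 held 28 and 30 hybrid and 67 and 72 mesenchymal cells. The Epcam-positive cells filled inferred rows A to C, so that sort and plate row cannot be told apart. Whether the groups came from different tumours cannot be told apart from their state, since the labels name none.

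The promoters of Krt5, Dsp (desmoplakin, the plakin that anchors keratins in desmosomes) and Epcam are shown because they carry the contrast: Krt5 and Dsp were high in hybrid cells, while Epcam was at or near 0 by the rule. Each line is 300 bases from RefSeq on GRCm38.p6, from 250 before to 50 after the gene's start, 5′ to 3′ on the gene's strand. The window of Krt5 is chr15:101712856-101713155 (minus strand), that of Dsp chr13:38151044-38151343 (plus) and that of Epcam chr17:87635729-87636028 (plus). Capitals mark CAGGTG or its reverse complement CACCTG, the E-box letters that Zeb and Snai factors are known to bind.
Krt5: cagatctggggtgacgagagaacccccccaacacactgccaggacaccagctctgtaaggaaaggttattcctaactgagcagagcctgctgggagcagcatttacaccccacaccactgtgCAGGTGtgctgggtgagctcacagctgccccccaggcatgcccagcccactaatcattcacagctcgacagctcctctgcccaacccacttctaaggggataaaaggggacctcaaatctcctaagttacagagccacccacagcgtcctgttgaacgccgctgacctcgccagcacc
Dsp: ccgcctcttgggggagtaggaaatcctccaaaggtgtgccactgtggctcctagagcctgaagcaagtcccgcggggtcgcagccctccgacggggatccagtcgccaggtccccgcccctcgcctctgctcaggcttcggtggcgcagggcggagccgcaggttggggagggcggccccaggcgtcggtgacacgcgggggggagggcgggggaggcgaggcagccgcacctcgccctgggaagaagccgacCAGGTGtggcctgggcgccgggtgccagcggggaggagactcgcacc
Epcam: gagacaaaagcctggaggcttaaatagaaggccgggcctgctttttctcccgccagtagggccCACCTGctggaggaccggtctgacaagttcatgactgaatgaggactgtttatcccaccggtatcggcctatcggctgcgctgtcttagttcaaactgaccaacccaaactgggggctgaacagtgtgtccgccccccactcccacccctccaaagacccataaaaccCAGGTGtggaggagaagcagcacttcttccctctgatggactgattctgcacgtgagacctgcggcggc
These letters were found at 2 places in the Epcam window and at 1 place each in those of Krt5 and Dsp. The window of Col17a1, a hemidesmosome gene also high in hybrid cells and not shown here, held none. Of 7 listed hemidesmosome genes with a promoter in the table, 3 (42.9%) held them. Of all 32851 RefSeq promoters, 20.2% held them on either strand. Of the 32 listed epithelial genes with a promoter in the table, 21 (65.6%) held them, against 2 of 30 mesenchymal genes (6.67%). They were in 7 of 8 epithelial genes under 10 CPM in hybrid cells and at 10 CPM or more in Epcam-positive cells and in 8 of 13 with 10 CPM or more in hybrid cells. A match describes letters in this window, not a site or a cause.

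For levels, reads were summed over the cells of a group and scaled to CPM, and the log2 ratio is that of (CPM + 1) in hybrid over mesenchymal cells, so a positive value means higher in hybrid cells. Intervals are exact 95% intervals for counting error only, since amplified reads carry no molecular identifier and several can stem from 1 molecule. CPM is not scaled to gene length, so levels are compared between cells for 1 gene and not between genes. Of 9383 genes with at least 10 CPM in either group, Krt14 and Epcam left out, 9.72% (912) were 2-fold or more higher in hybrid cells and 8.23% (772) 2-fold or more lower. Scaled to spike-in reads in place of gene reads, 1928 were higher and 477 lower, so 80.2% of the 2-fold genes were higher in place of 54.2%, and the median of all genes was 0.36 higher on the log2 scale. Ratios below are relative to gene reads. Over all 9383 genes the median log2 ratio was 0.10. The counts of list genes below are to be read beside the shares of 9.72% higher and 8.23% lower. A count near those shares does not set a short list apart.

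The epithelial genes stood higher in hybrid cells as a block. Of 62 listed epithelial genes 59 were found, 30 were measured (10 CPM or more in either group), 25 of those 30 were 2-fold or more higher in hybrid cells and none was 2-fold or more lower, with a median log2 ratio of 3.80. A gene that is low in mesenchymal cells is measured only where hybrid cells hold it, so the other 29 found genes, under 10 CPM in both groups, belong to the account as well. Without the 2 cells of low Vim, 20 of 25 measured epithelial genes were 2-fold or more higher and the median was 3.67, and without all 3 such cells the count was 20 of 25 and the median 3.68. The cells were chosen by a keratin, so these counts describe the choice and its company and stand as no test.

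Among basal keratins, Krt5 (chromosome 15, 101707070 to 101712898) came first. It ran over 0 to 7426 CPM (median 1014) in hybrid cells and 0 to 58.95 CPM (median 4.17) in mesenchymal cells. It was present in 47 hybrid and 3 mesenchymal cells, and the groups overlapped in the low part of the hybrid range. Summed, it stood at 1873 CPM in hybrid, 4.96 CPM in mesenchymal and 4868 CPM in Epcam-positive cells, a log2 ratio of 8.30 (interval 8.16 to 8.44) over mesenchymal cells. Krt5 also followed Krt14 within the hybrid group more closely than any other of 2305 genes ranked, with a Spearman coefficient of 0.78 over 58 cells.

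Wound keratins, which epidermis makes after injury and in tumours, were present in part of the hybrid cells. Krt6a was present in 40 of 58 hybrid cells and 1 mesenchymal cell and ran over 0 to 5508 CPM (median 279.9) in hybrid and 0 to 114.3 CPM (median 1.70) in mesenchymal cells. Krt16 was present in 32 hybrid and 1 mesenchymal cell, with summed levels of 300.6 CPM in hybrid and 1.54 CPM in mesenchymal cells. Krt17 was present in 24 hybrid and 1 mesenchymal cell and had a log2 ratio of 5.42. In the hybrid group no cell held more than 28.5% of the reads of any of the 3, while single mesenchymal cells held 61.1% of that group's Krt16 and 63.1% of its Krt17 reads. Reads of Krt6a, Krt16 and Krt17 can be shared with near-identical relatives, which the counting may have split.

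Not every keratin followed. Krt8 and Krt18, the pair of simple epithelia, were within 2-fold: Krt8 summed to 41.5 CPM in hybrid and 64.9 CPM in mesenchymal cells (log2 -0.63) and Krt18 to 39.2 CPM in hybrid and 48.1 CPM in mesenchymal cells (log2 -0.29). A single hybrid cell held 59.9% of the hybrid Krt8 reads. Krt15, a keratin of the hair follicle bulge, was under 10 CPM in both groups, at 7.02 CPM in hybrid and 0.650 CPM in mesenchymal cells, against 210.9 CPM in Epcam-positive cells.

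The transcription factor Trp63 (chromosome 16, 25683763 to 25892102) split the hybrid cells. It ran over 0 to 3031 CPM (median 46.97) in hybrid and 0 to 46.1 CPM (median 0) in mesenchymal cells, and was present in 28 of 58 hybrid cells (48.3%), 1 mesenchymal cell and 51 of 62 Epcam-positive cells. The summed log2 ratio was 5.99 (interval 5.80 to 6.18). Krt5 and Trp63 were present together in 26 hybrid cells (44.8%, interval 31.7 to 58.5%), in 0 mesenchymal cells, which allows a share of up to 2.16% (taken as 3 cells of the group; the exact 95% upper bound is 2.62%), and in 51 of 62 Epcam-positive cells (82.3%). Krt5 without Trp63 was seen in 21 hybrid, 3 mesenchymal and 11 Epcam-positive cells, and 9 hybrid cells, 97.1% of mesenchymal cells and no Epcam-positive cell had neither. The call depends on its limit: Trp63 was present in 27.6% of hybrid cells at 20 reads of 100000 and in 68.97% at 1 read, against 0 of mesenchymal cells at 20 reads and 5.76% at 1 read.

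Other regulators of epithelial identity were higher in hybrid cells, 9 of 11 measured by 2-fold or more, with a median log2 ratio of 3.55. Mesenchymal cells also held Sox9 and Klf5. Sox9, a factor of the hair follicle, was present in 53 hybrid and 79 mesenchymal cells, at 407 CPM in hybrid and 204.3 CPM in mesenchymal cells. Klf5 ran over 0 to 883 CPM (median 145.3) in hybrid and 0 to 844 CPM (median 19.3) in mesenchymal cells, and the ranges overlapped. Tfap2a, which acts with Trp63 in keratinocytes, was similar in both groups, at 12.8 CPM in hybrid and 15.98 CPM in mesenchymal cells. Esrp1, the splicing factor of epithelial isoforms, reached only 10.03 CPM in hybrid cells, was present in 5 of them, and stood at 112.7 CPM in Epcam-positive cells. For Ovol1, a repressor of EMT factors, the hybrid cell with the least Vim held 91.3% of the hybrid reads, and the log2 ratio of 3.55 was 0.93 without the cell with most reads in each group.

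Junction genes gave the most even picture, with 12 of 12 measured genes 2-fold or more higher in hybrid cells and a median log2 ratio of 4.43. Dsp ran over 0 to 3022 CPM (median 321) in hybrid and 0 to 408 CPM (median 0) in mesenchymal cells, and was present in 48 hybrid and 6 mesenchymal cells. Perp, a desmosome protein and target of Trp63, was in nearly every hybrid cell (55 of 58, 19.4 to 5974 CPM (median 1064)) and in 52 mesenchymal cells (0 to 642 CPM (median 15.5)), so its groups overlapped widely at a log2 ratio of 3.62. Dsc3, a desmosomal cadherin of basal keratinocytes, was present in 33 hybrid and 2 mesenchymal cells, and its relative Dsg2 in 15 hybrid and 0 mesenchymal cells. Cldn1, the claudin of epidermal tight junctions, was present in 35 hybrid, 18 mesenchymal and 20 Epcam-positive cells, and its summed level in hybrid cells was 196.8% of the Epcam-positive level.

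Several junction values rested on 1 cell, the cell with the least Vim. It held 98.2% of the hybrid Cldn4 reads and 54.7% of the Dsg3 reads. Without the cell with most reads in each group the log2 ratio of Cldn4 was 0.34 in place of 4.38. Cdh1, which encodes E-cadherin, was under the 10 CPM limit and close to absent: it was present in 2 of 58 hybrid cells, 0 mesenchymal cells and 47 of 62 Epcam-positive cells, with summed levels of 5.70 CPM in hybrid, 0.0855 CPM in mesenchymal and 202.01 CPM in Epcam-positive cells.

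Basal attachment genes were divided. Hemidesmosomes bolt basal keratinocytes to the basement membrane, and 6 of 10 measured genes were 2-fold or more higher in hybrid cells (median log2 1.94). Col17a1, the transmembrane collagen of the hemidesmosome, was present in 39 hybrid and 2 mesenchymal cells and ran over 0 to 2726 CPM (median 149.95) in hybrid and 0 to 384 CPM (median 0) in mesenchymal cells. Itgb4, the integrin subunit specific to hemidesmosomes, was present in 51 hybrid cells (0 to 869 CPM (median 177.8)) and 21 mesenchymal cells (0 to 307.2 CPM (median 2.07)), and its partner Itga6 in 48 hybrid and 36 mesenchymal cells. The laminin-332 chains Lamb3 and Lama3 had log2 ratios of 5.17 and 3.99, while the cytolinkers Plec and Dst and the subunit Itga3 lay within 2-fold of the mesenchymal level. Those within 2-fold are also used outside epithelia.

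Differentiation genes, which keratinocytes switch on as they leave the basal layer, were 2-fold or more higher for 7 of 8 measured (median log2 4.15), in few cells each. Sfn, the cell-cycle brake of differentiating keratinocytes, was the broad one, present in 46 hybrid and 12 mesenchymal cells. Krtdap was present in 21 hybrid and 0 mesenchymal cells and Dmkn in 23 hybrid and 0 mesenchymal cells. Lypd3, Sprr1b, Ivl and Sprr1a rested on the hybrid cell with the least Vim, which held 82.8%, 84.1%, 79.5% and 93.9% of their hybrid reads, so those 4 describe that cell and not the group.

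**Figure D2:**
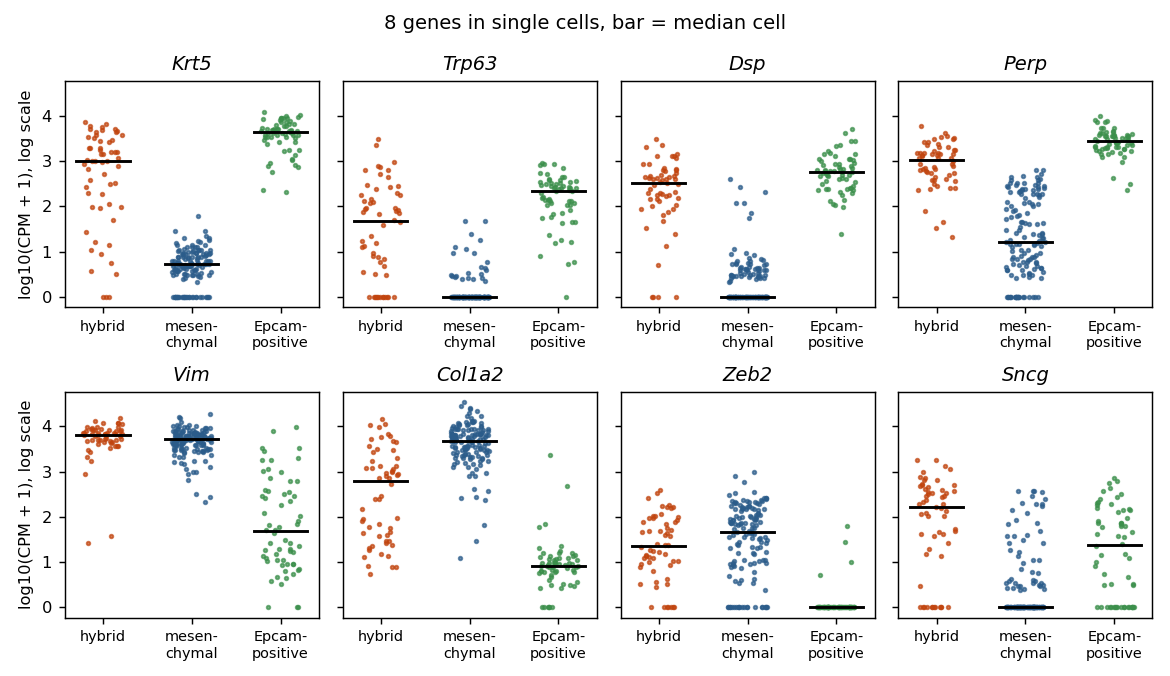
Levels of 8 genes in each cell as log10 of CPM + 1 for hybrid, mesenchymal and Epcam-positive cells, with 1 point per cell and a bar at the median cell. Krt5, Dsp and Perp are high in most hybrid cells and low or at 0 in most mesenchymal ones, Trp63 is present in 28 of 58 hybrid cells, Vim is alike in both, and the hybrid cells spread over the whole range of Col1a2.

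Hybrid cells held less of the epithelial programme than Epcam-positive cells, and not in proportion. Of 45 epithelial genes with at least 10 CPM in Epcam-positive cells, the median stood at 24.6% of the Epcam-positive level in hybrid cells. There were 12 genes within 2-fold, 18 lower by 2-fold or more but still at 10 CPM, and 15 under 10 CPM in hybrid cells. Without the 2 cells of low Vim these were 11, 14 and 20 genes and the median 19.6%, and Cldn4, Dsg3, Esrp1, Grhl3 and Ovol1 were then under 10 CPM as well. Retained genes included Dsp (59.1% of the Epcam-positive level), Trp63 (65.01%), Jup (53.1%), Pkp1 (75.6%), Klf5 (77.1%) and Sox9 (119.1%), which are desmosome plaque genes and basal or follicular transcription factors. Those under 10 CPM included Cdh1 (2.82%), the trafficking GTPase Rab25 (1.27%), the protease St14, the connexin Gjb2 (6.002%), and the regulators Ehf (6.29%) and Grhl2 (19.2%). In the comparison of hybrid with Epcam-positive cells 14.9% of 9529 genes were 2-fold or more higher and 10.6% lower, with a median log2 ratio of -0.018.

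Mesenchymal genes were mostly lower in hybrid cells than in mesenchymal cells. Of 54 listed genes 50 were measured, 22 were 2-fold or more lower in hybrid cells, none was 2-fold or more higher, and the median log2 ratio was -0.92. Against Epcam-positive cells, which share the hybrid cells with the comparison above, 41 of 47 measured mesenchymal genes were 2-fold or more higher in hybrid cells, with a median log2 ratio of 4.02. Without the 2 cells of low Vim, and also without all 3, 20 were 2-fold or more lower than in mesenchymal cells and the median was -0.89. On the spike-in scale 10 were 2-fold or more lower.

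Vim itself (chromosome 2, 13573927 to 13582826) did not separate the groups. It ran over 25.1 to 15632 CPM (median 6628) in hybrid cells, 214.5 to 18984 CPM (median 5167) in mesenchymal cells and 0 to 9627 CPM (median 47.3) in Epcam-positive cells. The hybrid and mesenchymal cells overlapped throughout, with a log2 ratio of 0.27 (interval 0.26 to 0.28). S100a4, a calcium-binding protein of motile and mesenchymal cells, was higher in hybrid cells, at 30.04 to 6838 CPM (median 2238) against 5.61 to 6599 CPM (median 683) in mesenchymal cells, with a log2 ratio of 0.99 that stops just short of 2-fold. Cd44, the receptor tyrosine kinase Axl and the galectin Lgals1 lay at log2 ratios of 0.11, -0.09 and -0.12. Tagln, an actin-binding protein of contractile cells, went the other way, present in 2 hybrid and 41 mesenchymal cells (log2 -2.27).

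The extracellular matrix genes were all lower in hybrid cells relative to gene reads. All 25 listed matrix genes were measured, and 18 of them were lower by 2-fold or more, with a median log2 ratio of -1.13. On the spike-in scale 24 of the 25 were lower, 8 of them by 2-fold or more, Dcn was not, and the median was -0.76. Col1a2, a chain of type I collagen, ran over 4.40 to 14684 CPM (median 619.6) in hybrid and 11.2 to 34729 CPM (median 4799) in mesenchymal cells, and was present in 70.7% of hybrid and 98.6% of mesenchymal cells. The hybrid cells spread from near 0 to levels above the mesenchymal median, and the ranges overlapped. Fn1, fibronectin, was present in 74.1% of hybrid and 99.3% of mesenchymal cells with medians of 679 CPM in hybrid and 3888 CPM in mesenchymal cells.

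The enzymes that cross-link matrix differed among themselves. Lox, which cross-links collagen and elastin, was present in 41.4% of hybrid and 93.5% of mesenchymal cells (log2 -1.94 (interval -1.98 to -1.90)), and Loxl2 in 15.5% of hybrid and 51.1% of mesenchymal cells (log2 -2.55). Loxl1 had a log2 ratio of -1.69, and Loxl3, which is not on the list, lay within 2-fold at -0.65. Mfap5, a microfibril protein, was present in 8 hybrid and 86 mesenchymal cells, with summed levels of 37.9 CPM in hybrid and 513 CPM in mesenchymal cells. Sfrp2, a secreted modulator of Wnt signals, stood at 25.7 CPM in hybrid and 327 CPM in mesenchymal cells. At the other end, Dcn, Fstl1 and Sparc differed least, at log2 ratios of -0.32, -0.53 and -0.55, and Dcn, the small proteoglycan decorin, was present in 81.03% of hybrid, 80.6% of mesenchymal and 11.3% of Epcam-positive cells.

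EMT transcription factors differed less. Of 8 measured, 1 was 2-fold or more lower in hybrid cells, none was 2-fold or more higher, and the median log2 ratio was -0.37, or 0.02 on the spike-in scale. Of all tested genes 8.23% were 2-fold or more lower, so 1 of 8 lies near that share. Prrx1 was alike, at 0 to 1755 CPM (median 376) in hybrid and 0 to 2527 CPM (median 239.8) in mesenchymal cells, and was present in 87.9% of hybrid and 82.01% of mesenchymal cells. Zeb1 was present in 21 of 58 hybrid cells and 55 mesenchymal cells, and Zeb2 in 22 hybrid and 73 mesenchymal cells. Either Zeb gene was present in 37 hybrid cells (63.8%, interval 50.1 to 76.01%) and 100 mesenchymal cells (71.9%, interval 63.7 to 79.2%). Of the Epcam-positive cells 2 had either. These intervals count cells of 1 sample, so they cannot serve to compare the groups.

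Snai1 was the factor past 2-fold, with 0 to 320.4 CPM (median 7.61) in hybrid and 0 to 755 CPM (median 31.1) in mesenchymal cells, presence in 12 hybrid and 60 mesenchymal cells, and a log2 ratio of -1.06 (interval -1.17 to -0.95), or -0.70 on the spike-in scale, where it is not 2-fold. Twist1 was alike in both groups (32.4 CPM in hybrid and 34.5 CPM in mesenchymal cells), and on the spike-in scale Twist1 and Zeb1 lay above 0, at 0.27 and 0.02. Snai2, which basal keratinocytes also make, was low in both, at 11.2 CPM in hybrid and 17.3 CPM in mesenchymal cells, against 98.9 CPM in Epcam-positive cells. Trp63 and a Zeb gene were present in the same cell in 15 of 58 hybrid cells (25.9%), 1 mesenchymal cell and 1 of 62 Epcam-positive cells.

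Of the integrin and adhesion markers Itgav, Itgb3 and Vcam1, Itgb3 was 2-fold or more lower in hybrid cells and the others were within 2-fold, and the median log2 ratio was -0.74. Itgav ran over 0 to 1061 CPM (median 167.3) in hybrid and 0 to 946 CPM (median 97.7) in mesenchymal cells, and was present in 47 hybrid and 93 mesenchymal cells. Vcam1 was present in 21 hybrid cells (36.2%) and 50 mesenchymal cells (35.97%), at summed levels of 91.6 CPM in hybrid and 153.7 CPM in mesenchymal cells, and its log2 ratio was -0.05 in columns 1 to 12 of the plate and -1.36 in columns 13 to 24. Itgb3 was present in 3 hybrid and 13 mesenchymal cells, at summed levels of 5.06 CPM in hybrid and 16.02 CPM in mesenchymal cells (log2 -1.49). By number of the 3 transcripts present, 9 hybrid cells had 0, 28 had 1, 20 had 2 and 1 had 3, and 33, 60, 42 and 4 mesenchymal cells had 0, 1, 2 and 3. These are transcripts, not surface proteins.

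**Figure D3:**
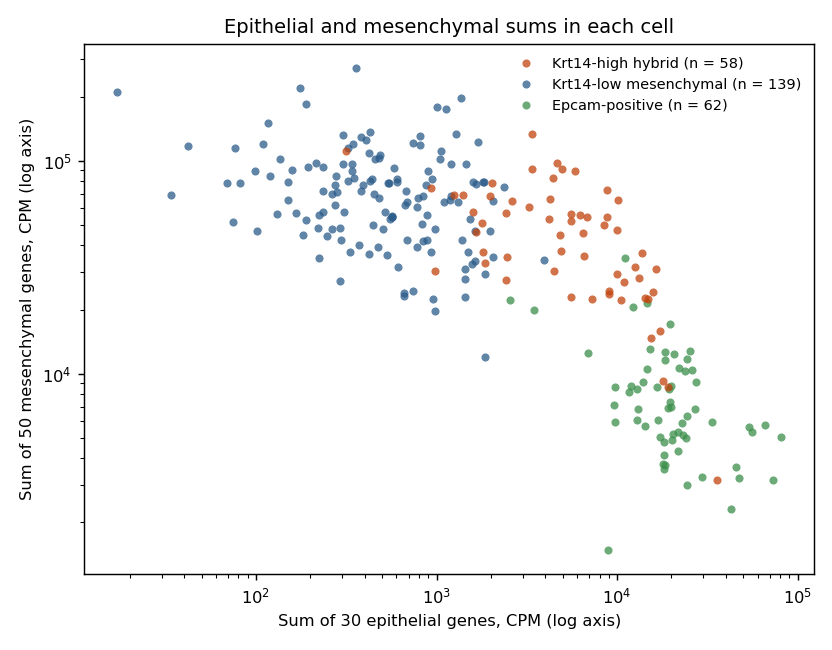
Sum of 50 measured mesenchymal genes against the sum of 30 measured epithelial genes in each cell, both in CPM on log axes, for hybrid, mesenchymal and Epcam-positive cells; Krt14 and Epcam are in neither sum. Hybrid cells lie between the other groups, and the 3 hybrid cells with the lowest mesenchymal sums (3169, 8611 and 9184 CPM) lie among the Epcam-positive ones. Genes low in mesenchymal cells are in the epithelial sum only where hybrid cells held them, so the spacing stands as no test.

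Summed per cell, the programmes placed hybrid cells between the other groups. The 30 epithelial genes summed to 313 to 35842 CPM (median 5576) in hybrid, 17.1 to 3963 CPM (median 517) in mesenchymal and 2562 to 80897 CPM (median 19455) in Epcam-positive cells. Of the hybrid cells 39 of 58 exceeded the highest mesenchymal cell. Genes low in mesenchymal cells entered this sum only where hybrid cells held them, and the cells were chosen by a keratin. The separation is therefore partly set by the choice and stands as no test. Over all 59 found epithelial genes the median was 5669 CPM in hybrid and 520 CPM in mesenchymal cells, and the highest mesenchymal cell had 3972 CPM. The 50 mesenchymal genes summed to 3169 to 132838 CPM (median 45935) in hybrid, 11973 to 272225 CPM (median 69288) in mesenchymal and 1484 to 35099.8 CPM (median 6823) in Epcam-positive cells. By that sum 36 hybrid cells exceeded the highest Epcam-positive cell, and 48 lay below the median of mesenchymal cells. The median cell had 13 of 30 epithelial genes present in the hybrid, 3 in the mesenchymal and 20 in the Epcam-positive group, and of 50 mesenchymal genes 31 in the hybrid, 36 in the mesenchymal and 10 in the Epcam-positive group.

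Within the 58 hybrid cells the programmes opposed each other. The epithelial and mesenchymal sums had a Spearman coefficient of -0.63 (-0.67 in columns 1 to 12 of the plate and -0.58 in columns 13 to 24, and -0.59 without the 2 cells of low Vim). Krt14 followed the epithelial sum at 0.80 and the mesenchymal sum at -0.52, and Vim at -0.17 (-0.18 in columns 1 to 12 and -0.29 in columns 13 to 24). Sums expressed per gene read share a denominator, and its part in these coefficients was not tested. The coefficient with gene reads was -0.16 for the epithelial sum (0.20 in columns 1 to 12 and -0.35 in columns 13 to 24). For the mesenchymal sum it was 0.03 (-0.29 in columns 1 to 12 and 0.22 in columns 13 to 24). With gene reads per spike-in read, the epithelial sum had 0.06 (0.39 in columns 1 to 12 and -0.24 in columns 13 to 24). The mesenchymal sum had -0.22 (-0.52 in columns 1 to 12 and 0.03 in columns 13 to 24). The part of RNA content was not tested. After Krt5, the genes closest to Krt14 were Perp (0.66), Sfn (0.64), Krt6a (0.63), Krt16 (0.57) and Avpi1 (0.55). Lowest were the endocytic receptor Lrp1 (-0.58), Fn1 (-0.56), Loxl3 (-0.51), Col1a2 (-0.51), Bgn (-0.49) and the syndecan Sdc2 (-0.48). Only genes present in at least 50% of hybrid cells were ranked.

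Over all tested genes, list members included, those named at the high end met 4 criteria (50 CPM or more in hybrid cells, present in 30% of them, 2-fold also without the top cell of each group, and the same direction in plate columns 1 to 12 and 13 to 24). The first 15 were Krt42, Krt5, Krt6a, Dmkn, Krtdap, Krt16, Fermt1, Klk8, Col17a1, Trp63, Tns4, Serpinb10, Serpinb5, Krt17 and Dsp, of which 6 are keratins or keratin-anchoring genes. Krt42 had the highest ratio, 9.27 (interval 9.09 to 9.46), present in 21 hybrid cells (36.2%), in 0 mesenchymal cells, which allows up to 2.16% as 3 cells of the group, and in 28 Epcam-positive cells, though its reads can be shared with close type I keratins. Fermt1, the kindlin of keratinocytes that activates integrins, ran over 0 to 967 CPM (median 11.9) in hybrid and 0 to 2.06 CPM (median 0) in mesenchymal cells, and was present in 26 hybrid and 0 mesenchymal cells. Klk8, an epidermal protease, was present in 28 hybrid and 2 mesenchymal cells, and Serpinb5 (maspin) in 26 hybrid and 1 mesenchymal cell.

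At the low end the same criteria held with mesenchymal cells as the higher group, and the first 15 were Ankrd1, Dpt, Col14a1, Mmp3, Mfap5, Sfrp2, Adm, Il6, Birc3, Mfap2, Pappa, Igf1, Srpx2, Itm2a and Ccbe1. Ankrd1, a target of YAP, was present in 3 of 58 hybrid and 57 mesenchymal cells and ran over 0 to 201.2 CPM (median 0) in hybrid and 0 to 2748 CPM (median 7.90) in mesenchymal cells. Dpt and Col14a1, which bind collagen fibrils, were present in 3 and 6 hybrid and in 47 and 68 mesenchymal cells. Il6, the cytokine, was present in 6 hybrid and 42 mesenchymal cells and Igf1, the growth factor, in 6 hybrid and 49 mesenchymal cells.

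Secreted signals differed by family. Of 16 measured cytokines and chemokines, 8 were 2-fold or more lower in hybrid cells and 1 higher, with a median log2 ratio of -0.82. Scaled to spike-in reads, 5 were lower and 2 higher by 2-fold or more. Ccl2 and Cxcl12, which draw monocytes and lymphocytes, had log2 ratios of -1.41 and -1.33, and Cxcl12 ran over 0 to 5603 CPM (median 262.8) in hybrid and 6.33 to 7333 CPM (median 1087) in mesenchymal cells. Cxcl1, a neutrophil chemokine, was alike, with medians of 3516 CPM in hybrid and 3479.5 CPM in mesenchymal cells. The gene counted as higher, Ccl20, had reads in 1 hybrid cell, and without the top cell of each group its log2 ratio was -0.02.

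Interferon response genes were lower for 7 of 9 measured (median log2 -1.56), at levels carried by few cells: Isg15 was present in 7 hybrid and 17 mesenchymal cells and Ifit1 in 0 hybrid and 6 mesenchymal cells. MHC class I genes were within 2-fold for 8 of 8 (median 0.43). Proteases of the matrix were 2-fold or more lower for 8 of 15 measured (median log2 -1.06). Mmp2, which cuts basement membrane collagen, ran over 0 to 5097 CPM (median 404) in hybrid and 37.4 to 11753 CPM (median 1649.5) in mesenchymal cells, and was present in 81.03% of hybrid and 98.6% of mesenchymal cells.

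Growth-factor pathways gave mixed lists. Of 9 measured genes of the EGF family, 3 were 2-fold or more higher and 2 lower. The ligands Tgfa and Areg were higher, with presence in 9 and 27 hybrid and 0 and 23 mesenchymal cells, and the ligand Ereg was lower, present in 26 hybrid and 79 mesenchymal cells (log2 -1.47). The receptor Egfr was alike in both groups (log2 0.24). Of 14 TGF-beta genes, 4 were 2-fold or more lower and none higher (median -0.44). On the spike-in scale 0 of the 14 were 2-fold or more lower, and the median was -0.07 with 7 genes on each side of 0. The receptor Tgfbr2 ran over 0 to 822 CPM (median 40.03) in hybrid and 0 to 1637 CPM (median 168.1) in mesenchymal cells, while its partner Tgfbr1 and the feedback inhibitor Smad7 lay at log2 ratios of 0.36 and 0.22.

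Notch genes had 3 of 6 higher and 1 lower (median log2 0.70). The ligand Jag1 was present in 50 of 58 hybrid and 61 mesenchymal cells, with medians of 209.7 CPM in hybrid and 26.8 CPM in mesenchymal cells, and the receptor Notch1 had a log2 ratio of 1.11. Of 9 Wnt genes 2 were higher and 1 lower (median -0.05, or 0.41 on the spike-in scale), against 9.72% higher and 8.23% lower of all tested genes. The ligand Wnt10a was present in 27 hybrid and 14 mesenchymal cells, and the inhibitor Dkk2 in 5 hybrid and 39 mesenchymal cells. In the hair follicle list 6 of 12 were higher and 2 lower (median 1.27). Cdh3, the P-cadherin of follicle and basal cells, was present in 35 hybrid and 22 mesenchymal cells, and Tcf7l1 and Lrig1 were the lower ones (log2 -2.43 and -1.17, and Lrig1 -0.81 on the spike-in scale).

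Cell-cycle genes stood higher in hybrid cells in the sum. Of 16 G2 and M phase genes 13 were 2-fold or more higher and none lower (median log2 1.32), and of 13 S phase genes 4 were (median 0.90). On the spike-in scale 14 of the G2 and M phase and 10 of the S phase genes were 2-fold or more higher. Mki67 or Top2a was present in 13 hybrid cells (22.4%, interval 12.5 to 35.3%) and 19 mesenchymal cells (13.7%, interval 8.44 to 20.5%). Of the Epcam-positive cells 22 of 62 (35.5%) had either. The intervals count cells of 1 sample, so they cannot serve to compare the groups. The sum rests on a few cells: 1 hybrid cell held 40.7% of the Cenpf reads, and the log2 ratio of Mki67 was 0.93 in columns 1 to 12 of the plate and 3.10 in columns 13 to 24. Kif11, a mitotic motor, was -0.58 and 3.25 there, which reverses its direction in the first.

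Targets of p53 did not go uniformly. Both groups carry floxed Trp53, and its transcript, counted whether or not it holds the deleted exons, was at 23.1 CPM in hybrid and 15.7 CPM in mesenchymal cells, which checks nothing about the deletion because reads were summed over the whole gene. Cdkn1a (p21), a brake on the cell cycle that other factors also induce, ran over 0 to 2569.6 CPM (median 313) in hybrid and 0 to 1184 CPM (median 44.5) in mesenchymal cells, and was present in 45 hybrid and 66 mesenchymal cells. Phlda3, an inhibitor of Akt signalling, was present in 51 hybrid and 65 mesenchymal cells (log2 1.89 (interval 1.84 to 1.94)). These 2 of 9 measured targets were 2-fold or more higher (4 of 9 on the spike-in scale) and Sesn2 was 2-fold lower (not so on the spike-in scale, at -0.70), and the list median was 0.53. Immediate early genes were within 2-fold for 16 of 17, with log2 ratios of 0.40 for Fos and -0.57 for Jun and a median of -0.18, or 0.18 on the spike-in scale. Hypoxia genes were within 2-fold for 12 of 14 (median -0.03, or 0.33 on the spike-in scale). Of all tested genes 9.72% were 2-fold or more higher and 8.23% lower, and the counts of these short lists are to be read beside those shares.

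**Figure D4:**
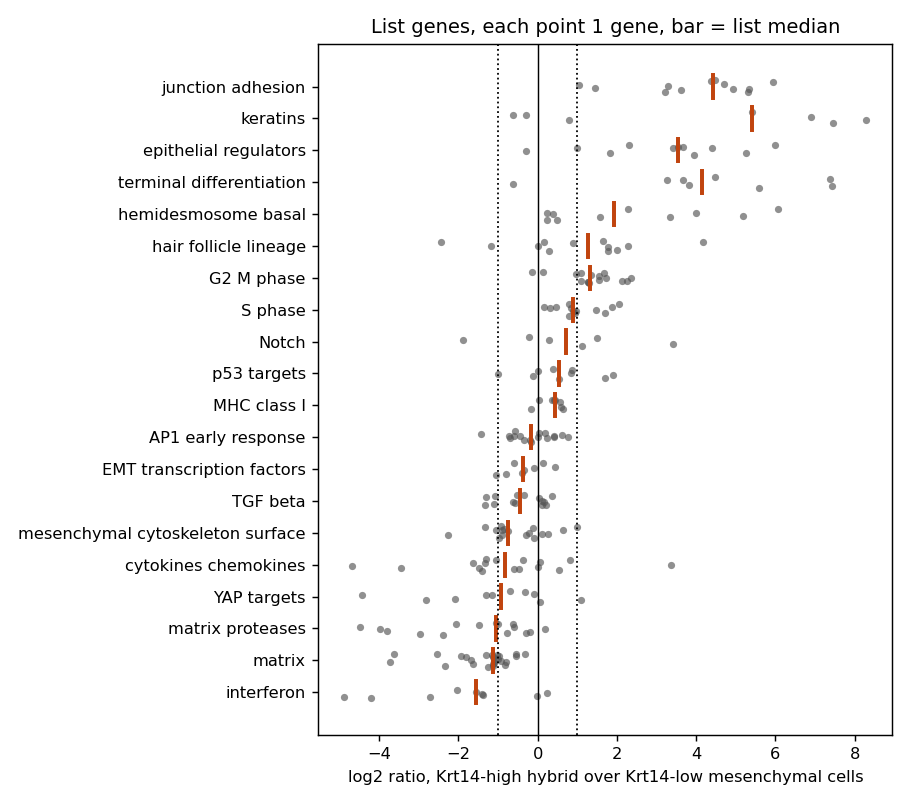
Log2 ratio of hybrid over mesenchymal cells for each measured gene of 20 lists, with 1 point per gene, a bar at the list median, a solid line at 0 and dotted lines at 2-fold. Epithelial lists lie at medians from 1.94 to 5.42, matrix genes at -1.13, interferon genes at -1.56.

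Genes of the YAP list, which holds pathway members as well as targets, were 2-fold or more lower for 5 of 10 measured (median log2 -0.92), with Ankrd1 and Yap1 itself at the lowest ratios. Scaled to spike-in reads, 3 of the 10 were 2-fold or more lower and 4 lay above 0. Yap1 (chromosome 9, 7931999 to 8004596) encodes the transcriptional co-activator of the Hippo pathway. It ran over 0 to 3699 CPM (median 23.5) in hybrid cells, 0 to 7982 CPM (median 722) in mesenchymal cells and 0 to 2069.9 CPM (median 20.6) in Epcam-positive cells. Cells at 200 CPM or more were 7 of 58 hybrid (12.1%, interval 4.99 to 23.3%), 93 mesenchymal (66.9%, interval 58.4 to 74.7%) and 11 of 62 Epcam-positive. The log2 ratio was -2.83 (interval -2.87 to -2.78), and -2.14 in columns 1 to 12 of the plate and -4.63 in columns 13 to 24. Its relative Wwtr1 (TAZ) did not differ by 2-fold (log2 0.05).

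The neighbours of Yap1 on chromosome 9 went with it. Of 10 tested genes that start within 2 Mb before Yap1, 9 were 2-fold or more lower in hybrid cells (median log2 -2.71). Of 4 from the Yap1 start to 2 Mb after it, Yap1 itself included, 3 were (median -2.62), and Arhgap42 (-0.97) was not. The lower neighbours include genes of unlike function: the apoptosis inhibitors Birc2 and Birc3, the matrix proteases Mmp3, Mmp10 and Mmp13, and the membrane protein Tmem123. Birc3 ran over 0 to 675 CPM (median 14.3) in hybrid and 0 to 5394 CPM (median 388) in mesenchymal cells, and was present in 39.7% of hybrid and 76.98% of mesenchymal cells. Farther out, from 5 to 2 Mb before the Yap1 start, 5 of 9 tested genes were 2-fold or more lower (median -1.03). From 5 to 10 Mb after the Yap1 start the median was -0.19. Over the whole chromosome the median of 522 genes was -0.43 and 19.9% were 2-fold or more lower, against 8.23% of all genes, and the medians of other chromosomes ran from -0.19 (chromosome 10) to 0.26 (chromosome 11).

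**Figure D5:**
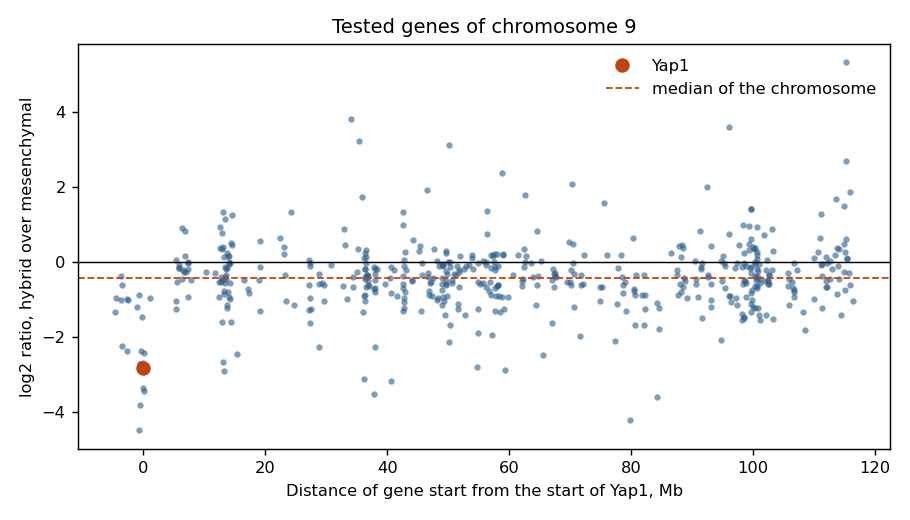
Log2 ratio of hybrid over mesenchymal cells for 522 tested genes of chromosome 9 against the distance of their start from that of Yap1 in Mb; each point is 1 gene, the dashed line is the chromosome's median of -0.43 and Yap1 is marked. The lowest run of genes lies around Yap1, and most of the chromosome lies below 0.

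The comparison was repeated in cells with Yap1 under 200 CPM only, a choice made after seeing the data, which left 51 hybrid and 46 mesenchymal cells. There 1634 genes were 2-fold or more higher in hybrid cells, 26 epithelial genes were 2-fold or more higher (list median 3.97), 29 mesenchymal genes were 2-fold or more lower, and the matrix median was -1.92. The median of chromosome 9 was then -0.13. The median of all genes was 0.15 higher in this comparison. The mesenchymal cytoskeleton and surface list had a median of 0.03 there and -0.74 in all cells. What sets Yap1-high cells apart was not tested.

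Markers of immune, endothelial, melanocyte, erythroid and muscle cells were mostly low in both groups, while those of dermal fibroblasts were not. Of 13 immune markers only S100a9 reached 10 CPM, and the summed list ran over 0 to 456 CPM per hybrid and 0 to 1239 CPM per mesenchymal cell with a median of 0 in both; Ptprc, which marks all leukocytes, had 0 reads in every cell of both groups. Of 9 endothelial markers only Flt1 did, at 53.4 CPM in hybrid and 12.1 CPM in mesenchymal cells, while Kdr, Tek and Emcn had no read in either group and Cdh5 was at 0.182 CPM in hybrid and 0 CPM in mesenchymal cells. Melanocyte, erythroid and muscle lists had no measured gene. The dermal fibroblast list had 7 of 9 measured, 4 lower and 1 higher in hybrid cells (Ly6c1, log2 1.85), and its sum ran over 52.6 to 18156 CPM per hybrid (median 1769) and 54.9 to 41791 CPM per mesenchymal cell (median 1767). The part of fibroblasts among these cells was not tested. Pericyte markers had 2 of 7 measured, Cspg4 within 2-fold while for Rgs5 a single mesenchymal cell held 85.5% of that group's reads.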

How the data were processed

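RNA was measured by Smart-seq2 in sorted single cells of 1 plate, with spike-in RNA and no molecular identifiers. The authors deposited raw counts of reads for each gene and spike-in. Per the submitters' processing notes, cutadapt 1.13, STAR 2.5.2b, HTSeq 0.6.0 and build GRCm38 were used, with roles, strand setting and annotation release not given in the sources used here. Reads of overlapping or near-identical genes can therefore be split or shared. Symbols for 49326 of 49585 gene identifiers came from GENCODE vM21 on GRCm38, matched without version numbers, and promoters from RefSeq; for Krt14 that table holds the start of a shorter transcript inside the gene, which was not used.

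Cells were filtered and grouped as the report states, with sorts taken from the labels: 263 of 310 Epcam-negative cells passed, 253 had Epcam under 50 CPM, and these split into 58 hybrid, 139 mesenchymal and 56 in between. From the deposited counts, counts per 1000000 gene reads (CPM) were computed with Python 3.11.15, numpy 2.4.6, pandas 2.3.3 and scipy 1.17.1, and a pseudocount of 1 CPM was used for log2 ratios. For presence calls each cell was thinned to 100000 reads. With 1 sample per sorted population no test was run, and Poisson, Clopper-Pearson and conditional binomial 95% intervals cover counting error only. The ratio step was tested on simulated data. TMM factors came from edgeR 4.0.16 in R 4.3.3 as 1 alternative scaling, and the other alternatives were the cell filter, the Krt14 and Epcam limits, other scalings, pseudocounts, minimum levels, plate columns, leaving out top cells and the presence rule. No doublet caller was run. No column of values was left without a sample. An allele that all mice share and values of some genes are not reported here.

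The members and gene lists were chosen with earlier results of these data known. Named genes are a fixed set of lineage, EMT and integrin genes, the list members with the largest ratios, the 15 highest of 222 and 15 lowest of 217 genes, list members included, that met the criteria in the report and bear no predicted, mitochondrial, ribosomal protein or pseudogene name, and the 6 highest and 6 lowest rank correlations with Krt14 of at least 0.4 in size. Other list members named for contrast were chosen after their values were seen.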

Additional observations from a re-analysis of the deposited data

Results flagged for a closer look

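A well sorted with 50 Epcam-negative cells was used in no comparison. It held 154897 gene reads, with Vim at 6650 CPM and Col1a1 at 2376 CPM. What marked it is that both lay above the pooled reads of the 2 wells set up without a cell (Vim at 1569 CPM and Col1a1 at 116.2 CPM), nearly all of which came from the Epcam-positive one. They did not lie above the Epcam-negative well without a cell, where Vim stood at 6222 CPM (interval 4027 to 9185 CPM) and Col1a1 at 2738 CPM on 4018 gene reads. Krt14 stood at 1595 CPM, Krt5 at 478 CPM and Trp63 at 38.7 CPM in the 50-cell well. It is 1 well, so no spread can be given.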

How the results depend on the processing

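No paired analysis was possible because the labels give no replicate numbers and each sorted population is 1 sample. The counts of 912 higher (9.72%) and 772 lower genes (8.23% of 9383), 25 epithelial genes higher and 22 mesenchymal genes lower stayed within 1.5 times under the other cell filters, Krt14 and Epcam limits, the mean of cell CPM, TMM, median of ratios, the smaller pseudocount and plate columns 1 to 12, and without the top cells, the 2 cells of low Vim or the 3 of low mesenchymal sum. On the spike-in scale 1928 genes were higher (19.77%) and 477 lower (4.891%), with 10 mesenchymal genes lower (19.61%). A pseudocount of 10 CPM gave 460 higher (4.902%) and 413 lower (4.402%), since it shrinks ratios of low genes. No minimum level gave 1814 higher (7.899%) and 1946 lower (8.473%), with 40 epithelial genes higher (70.18%). A minimum of 50 CPM gave 6.618% higher and 6.665% lower of 4246 genes. Plate columns 13 to 24 alone gave 1372 higher (14.25%) and cells with Yap1 under 200 CPM 1634 higher (17.33%), and the cause was not tested for these 3 settings. Directions reversed, among others, for the pericyte list (median 0.2321 on the spike-in scale) and the interferon list (0.2474 at a minimum of 50 CPM). Reversed genes included Kif11 (-0.5768 in columns 1 to 12), Inhba (0.02268 in columns 13 to 24) and Ccl20 (-0.0247 without the top cells). In cells with Yap1 under 200 CPM, Fxyd5 (-0.002291), Itgbl1 (-0.3048) and S100a9 (-0.6648, against 0.66 in all cells) did so too. On the spike-in scale the medians of the EMT factor, immediate early, Wnt and hypoxia lists changed sign to lie above 0, as did Twist1 and Zeb1. Among the named genes past 2-fold, at most 2 lost their direction and at most 20 fell under 2-fold in any setting. Depth limits genes seen in few cells, where 1 cell can hold most of the reads.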

Other observations

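Some genes stood higher in hybrid cells than in both the mesenchymal and the Epcam-positive cells. By a rule chosen after values were seen, 28 genes did and 7 were lower than both. Higher genes were 2-fold or more over each group, also without the top cells, with 50 CPM and presence in 30% of hybrid cells. Lower genes met those 50 CPM and 30% limits in both other groups, with top cells left out only against mesenchymal cells. Both sets kept their direction over mesenchymal cells in both plate column ranges. Predicted, mitochondrial, ribosomal protein and pseudogene names were left out. Both comparisons share the hybrid cells, so they are not independent. Of all tested genes, 9.72% of 9383 were 2-fold or more higher than in mesenchymal cells and 14.9% of 9529 than in Epcam-positive cells. The shares 2-fold or more lower were 8.23% and 10.6%. Those shares cover genes from 10 CPM. Genes eligible for the joint rule were not counted, so 28 and 7 cannot be given as shares. Sncg, gamma-synuclein, summed to 314 CPM in hybrid, 22.6 CPM in mesenchymal and 105.6 CPM in Epcam-positive cells, and was present in 40 of 58 hybrid, 17 mesenchymal and 25 of 62 Epcam-positive cells. Acan, the large proteoglycan of cartilage, stood at 70.1 CPM in hybrid, 5.78 CPM in mesenchymal and 3.78 CPM in Epcam-positive cells. Cells between the Krt14 limits did not share the high level of either: Sncg was present in 14 and Acan in 8 of 56.

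The set held genes of several kinds. Aldh3a1 and Aldh2 oxidise aldehydes, and Aldh2 was present in 45 hybrid, 55 mesenchymal and 25 Epcam-positive cells. Aqp5 is a water channel, at 297.9 CPM in hybrid, 51.6 CPM in mesenchymal and 58.1 CPM in Epcam-positive cells. Robo2, Sema3c and Cdh13 act in cell guidance and adhesion, and Cdh13 summed to 388 CPM in hybrid, 96.5 CPM in mesenchymal and 56.7 CPM in Epcam-positive cells. Fmod, the collagen-binding fibromodulin, stood at 337 CPM in hybrid, 68.9 CPM in mesenchymal and 13.003 CPM in Epcam-positive cells, against the direction of the listed matrix genes. The lower set included Clu, the secreted chaperone clusterin, at 83.1 CPM in hybrid, 356 CPM in mesenchymal and 647 CPM in Epcam-positive cells.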
